A study of Mus musculus with 7 samples.

Results

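Cxcl1, Cxcl2, Cxcl3 and Cxcl5 are chemokines that bind the receptor Cxcr2. These 5 genes were taken by symbol from the 32285 genes of the deposited count tables, with earlier results of these data known. All 5 are reported whatever their values, and were followed across tumour, microglial, macrophage, endothelial and other cells of mouse glioma. The tumours were grown in the brains of wild-type C57BL/6 mice aged 7 to 10 weeks from NSCG-mCherry, a glioma line described as EGFRvIII+ and Arf/Ink4a-/-. Whole tumours, pooled from at least 2 mice per library and taken at about day 14, were digested at 37 °C for 30 min and measured by droplet single-cell RNA sequencing in 7 libraries.

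All 7 libraries came from the same line and strain and differed in what the mice were given. The UT library (n = 1) is labelled as control, with no agent named. The IgG libraries (n = 2) came from mice given the isotype antibody IgG2b at 10 mg/kg. Controls for BPI were also gavaged with diluent, and the labels do not say which IgG library that was. The BP libraries (n = 2) came from mice given the VEGF-binding antibody B20 at 5 mg/kg together with anti-PD-L1 at 10 mg/kg. The BPI library (n = 1) added the PI3K inhibitor IPI-145, gavaged every day at 10 mg/kg. IgG and BP were injected every 3 days from day 6 to 7, for 3 rounds. The CD40 library (n = 1) came from mice that received anti-CD40 agonist, 100 µg per dose, 2 doses with 5 days between, and the labels do not say whether a dendritic cell vaccine was also given. Pooled tumours hide the spread between mice, and p-values measure only the spread between libraries.

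The ligands are small secreted proteins with an ELR motif that form gradients for neutrophils. NF-kappa B, switched on by interleukin-1, TNF and bacterial products, is the main inducer of their transcription, and enzymatic digestion of tissue can induce the same genes. Cxcr2 is a G protein-coupled receptor whose textbook carrier is the neutrophil, where it serves release from bone marrow and entry into tissue. In brain tumours the ligands are best known from macrophages, microglia and the tumour cells themselves.

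The 4 ligand genes lie together on chromosome 5 of GRCm38, within 146579 bases and all on the + strand: Cxcl5 at 90759360 to 90761624, Cxcl3 at 90786103 to 90789600, Cxcl1 at 90891241 to 90893115 and Cxcl2 at 90903871 to 90905938 (GENCODE annotation). Cxcr2 lies on chromosome 1 at 74153989 to 74161246, also on the + strand. Promoter sequences of 4 of the 5 genes were matched by symbol in RefSeq (GRCm38.p6). They are shown because the 3 ligands whose promoters were matched share an exact 9-base NF-kappa B-type motif, GGAATTTCC, a short distance before a TATA-like box. Each stretch runs 5′ to 3′ from the motif, in capitals, to the end of that box.
Cxcl1, chr5:90891175-90891216: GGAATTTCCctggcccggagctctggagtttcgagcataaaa
Cxcl2, chr5:90903803-90903847: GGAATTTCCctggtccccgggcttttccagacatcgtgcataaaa
Cxcl3, chr5:90786029-90786077: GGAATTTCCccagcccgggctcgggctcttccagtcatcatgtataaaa
The motif begins 70 bases before RefSeq's start site in Cxcl1, 96 in Cxcl2 and 72 in Cxcl3, and these start sites differ from the GENCODE gene starts given above. Searched on both strands in the 250 bases before the start site, it was found in 94 of 32851 promoters (0.286%). The Cxcr2 window held no copy, which says only that these letters are not there. A match is a description of the letters, not a measured binding site.

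Libraries held 68997476 to 186793886 UMIs (unique molecular identifiers, the counted RNA molecules), and 48588 cells passed the filters. Cells were clustered without the 5 member genes, and marker genes gave each cluster its name, such as "tumour-like". Levels are given as CPM (counts per 1000000), UMIs of the gene relative to the UMIs of all cells of that class in that library. Intervals are exact 95% intervals and cover counting error only. Marker lists held up in the classes used most: at least 9 of 11 monocyte/macrophage markers and 9 of 10 microglia markers were above 20 CPM in every library. Only 4 of 10 tumour markers were above 20 CPM in IgG replicate 1, BP replicate 2 and BPI, against 8 or 9 in the other 4 libraries. Cdkn2a, the locus that the label gives as lost, was counted at 154 to 198 CPM in tumour-like cells of all 7 libraries, and which part of the locus the line lacks is not given in the labels. Mouse Egfr stood at 36.6 CPM in tumour-like cells of UT and at 162 to 226 CPM elsewhere.

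Libraries stood apart in ways the groups do not explain, and this touches every comparison below. By their library numbers, IgG replicate 1, BP replicate 2 and BPI were neighbours, as were CD40 and IgG replicate 2, while BP replicate 1 and UT stood alone. Tumour-like cells of the first set fell mainly into clusters led by Wfdc2, those of the second set into clusters led by other genes such as Fabp7 and Lrrc7, and those of BP replicate 1 and UT into clusters of their own. BP replicate 2, BPI and CD40 can therefore each be set against 1 IgG library of their own set, and those values are given beside the pooled ones. BP replicate 1 and UT have no IgG library of their own set, and UT also drew its cell barcodes from another list than the other 6 libraries, which cannot be told apart from its group. Between 0 and 23 cell barcodes were shared by any pair of libraries, at most 0.320% of the smaller library.

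Most Cxcl1 came from tumour-like cells. They held 88.9% of the 12399 Cxcl1 UMIs found in cells and made up 62.05% (30151) of the cells. Cxcl1, a neutrophil attractant also called KC, stood in tumour-like cells at 18.5 CPM in UT, 37.8 in IgG replicate 1, 0.814 in IgG replicate 2, 2.73 in BP replicate 1, 74.0 in BP replicate 2, 70.0 in BPI and 0.733 in CD40. The 3 libraries of the first set were the 3 highest, and replicates of one treatment fell at opposite ends. IgG replicate 1 was 46.4-fold above IgG replicate 2, and BP replicate 2 was 27.1-fold above BP replicate 1. The share of tumour-like cells with a Cxcl1 UMI ran from 0.983% in IgG replicate 2 and 1.04% in CD40 to 32.7% in BP replicate 2. Mean Cxcl1 levels in tumour-like cells were 19.3 ± 26.1 CPM in IgG and 38.4 ± 50.4 CPM in BP (SD, n = 2 each), so the spread within a treatment exceeded the difference between them.

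Within the first set, tumour-like Cxcl1 was 1.96-fold higher in BP replicate 2 than in IgG replicate 1 (1.87 to 2.06) and 1.85-fold higher in BPI (1.76 to 1.95). Within the second set, CD40 stood at 0.901 of IgG replicate 2 (0.657 to 1.23), an interval that includes no difference. These are ratios of 2 libraries with no replicate check. The rise in the first set was seen in each of its 3 main tumour clusters: 32.7 to 42.2 CPM in IgG replicate 1 against 67.1 to 80.8 CPM in BP replicate 2 and BPI. A few tumour-like cells of the first set lay in clusters that otherwise belonged to the second, and there Cxcl1 varied: 4.03 CPM in 40 cells of IgG replicate 1, 2.41 CPM in 76 cells of BP replicate 2 and 172.5 CPM in another 49 cells of BP replicate 2. UT had 17.9 and 26.9 CPM in its 2 main tumour-like clusters and 4.84 CPM in a cluster of 1500 cells that stayed unnamed. That cluster raised 7 of 10 tumour markers, and unnamed cells made up 54.85% of the cells of UT. The single highest cell was a tumour-like cell of BP replicate 2 with 71 Cxcl1 UMIs among 4157.

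**Figure D1:**
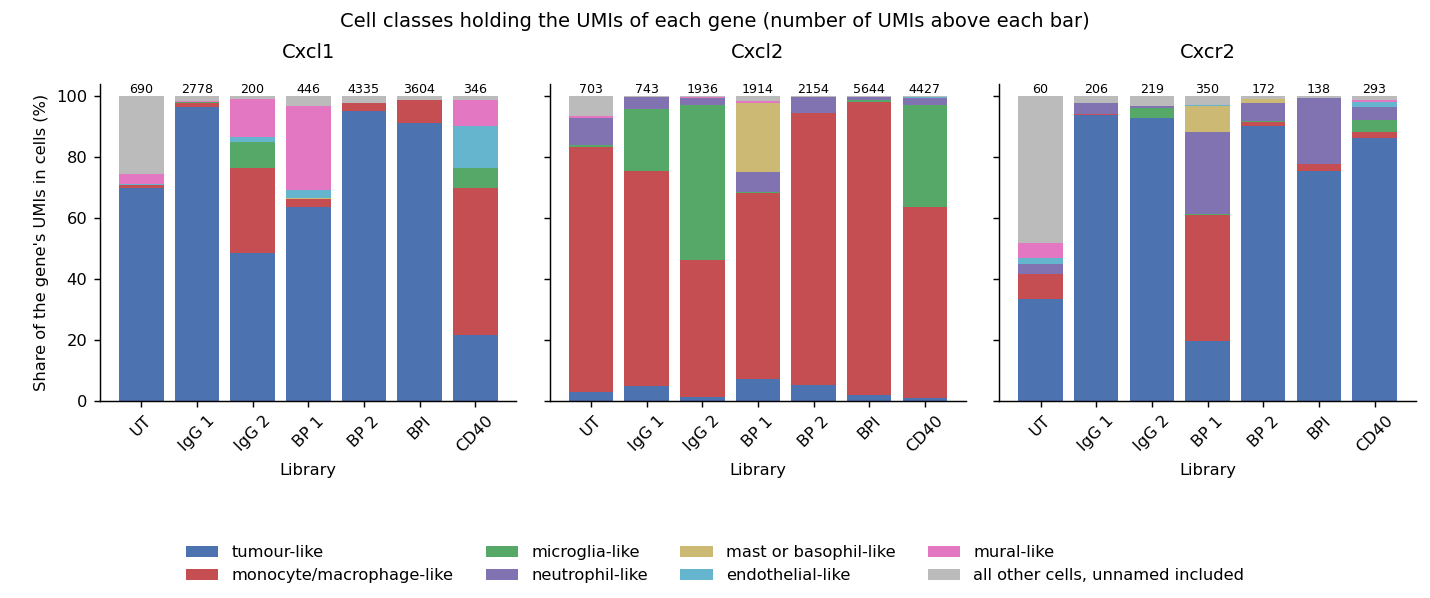
Share of the UMIs of Cxcl1, Cxcl2 and Cxcr2 found in cells (y axis, %) by cell class (colours) in each library (x axis), with the number of UMIs above each bar. Tumour-like cells hold most Cxcl1 in the libraries with the most Cxcl1 UMIs (2778, 4335 and 3604), monocyte/macrophage-like and microglia-like cells hold most Cxcl2, and tumour-like cells hold most Cxcr2 UMIs except in UT and BP replicate 1. In UT, 20 of the 60 Cxcr2 UMIs lie in tumour-like cells and 27 in an unnamed cluster that raised 7 of 10 tumour markers.

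Where tumour-like Cxcl1 was low, other cells held a larger part of it. In CD40, tumour-like cells held 21.4% of the 346 Cxcl1 UMIs and monocyte/macrophage-like cells 48.55%. Tumour-like cells were still the largest source in IgG replicate 2, with 48.5% of 200 UMIs against 28.0% in monocyte/macrophage-like cells, and in BP replicate 1, with 63.45% of 446 against 27.35% in mural-like cells. Monocyte/macrophage-like levels were 1.23 CPM in UT, 62.4 in IgG replicate 1, 40.7 in IgG replicate 2, 0.678 in BP replicate 1, 68.0 in BP replicate 2, 83.9 in BPI and 57.4 in CD40. UT and BP replicate 1 were far below the other 5 libraries, which lay within 40.7 to 83.9 CPM whichever set they belonged to. Mural-like cells, named from markers of the pericytes and smooth muscle of vessels, are given where at least 20 were kept. They stood at 25.6 CPM in IgG replicate 2, 35.3 in UT, 35.8 in CD40 and 136.97 in BP replicate 1 (30 cells). Their clusters raised other markers too: those of 46 and 64 cells all endothelial markers, and that of 164 cells 0.9 of the tumour markers. The part of mixed cells in these levels was not tested. Endothelial-like cells had 1.59 CPM in UT, 1.61 in IgG replicate 2, 15.999 in CD40, 19.2 in BP replicate 1 and 0 UMIs in the 21 cells of BPI, where 3 counts would be 20.3 CPM. Microglia-like cells had 0 UMIs in UT, BP replicate 1 and BP replicate 2 and 2.20 to 9.45 CPM in the other 4 libraries. In those with 0, 3 counts would be 3.23, 0.797 and 5.79 CPM, so UT and BP replicate 2 cannot be placed below that range. The highest values rest on 8 UMIs in IgG replicate 1 and 4 in BPI. An upper estimate of free RNA from near-empty droplets came to 44.8% and 42.85% of these, and to 4.39% in IgG replicate 2 and 5.33% in CD40.

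Cxcl2, also called MIP-2 and a classic product of activated macrophages, came from other cells. Monocyte/macrophage-like cells, 7.405% of all cells, held 75.7% of its 17521 UMIs in cells, and microglia-like cells another 15.2%. Monocyte/macrophage-like Cxcl2 stood at 86.7 CPM in UT, 887 in IgG replicate 1, 629 in IgG replicate 2, 66.2 in BP replicate 1, 1200.3 in BP replicate 2, 1712 in BPI and 949.9 in CD40. As for Cxcl1 in these cells, UT and BP replicate 1 lay apart and low, and the other 5 libraries high. The share of monocyte/macrophage-like cells with a Cxcl2 UMI ran from 14.7% in BP replicate 1 and 19.9% in UT to 44.1% to 55.9% in the rest. Thinned to 1000 UMIs per cell, these shares were 4.21% and 6.59% against 20.6% to 42.5%.

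Different clusters held the monocyte/macrophage-like class in different libraries. In BP replicate 1, 1642 of 1806 cells lay in a cluster led by Ccl8, Ccl24 and Chil3, where Cxcl2 was at 70.1 CPM, while in the other 6 libraries nearly all lay in a cluster led by Lyz2, Ms4a4c and Ly6c2. In that second cluster BP replicate 1 had 11.7 CPM over 164 cells and UT 88.4 CPM over 572, so both stayed low there too. Within the first library set, Cxcl2 in these cells was 1.35-fold higher in BP replicate 2 than in IgG replicate 1 (1.23 to 1.49) and 1.93-fold higher in BPI (1.77 to 2.12). Within the second set, CD40 was 1.51-fold above IgG replicate 2 (1.40 to 1.63). Each of these counting intervals excluded 1, none of the ratios had a replicate, and the first 2 share IgG replicate 1 with its 78 cells. A single cell held 13.1% of the class's Cxcl2 UMIs in IgG replicate 1 and 23.7% in IgG replicate 2. The intervals do not cover that spread between cells.

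Microglia-like cells showed another pattern. Their Cxcl2 level was 5.39 CPM in UT, 177 in IgG replicate 1, 127.8 in IgG replicate 2, 1.59 in BP replicate 1, 0 in BP replicate 2, 38.4 in BPI and 155 in CD40. The IgG and CD40 libraries were the 3 highest, and both BP libraries and UT the 3 lowest. With 0 UMIs, where 3 counts would be 5.79 CPM, BP replicate 2 cannot be placed below UT. Within the first set, BP replicate 2 had 0 UMIs in 165 cells, at least 30.6-fold lower than IgG replicate 1 at a floor of 3 counts in the library, and BPI stood at 0.217 of IgG replicate 1 (0.137 to 0.3302). Within the second set, CD40 was 1.22-fold above IgG replicate 2 (1.12 to 1.32). The BP values rest on 6 UMIs in 260 cells and 0 in 165, the IgG values on 150 UMIs in 155 cells and 986 in 739. In IgG replicate 1 only 12 cells had a UMI and 1 cell held 98 of the 150, and in BPI 1 cell held 16 of 26.

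The microglial signal rested on few cells. In all libraries together, the 1% of microglia-like cells with the most Cxcl2 held 53.4% of the class's UMIs, and the highest cell had 153. In IgG and CD40, the 173 microglia-like cells with a Cxcl2 UMI had summed monocyte/macrophage markers at 1765 CPM, against 1026 CPM in the 1597 without, with 5 of 11 markers higher and 2 at 0. Their summed microglia markers were at 6683 against 11980 CPM, and their median depth was 20530 against 6837 UMIs per cell. With finer clusters (Leiden resolution 2), no member had enough counts to be tested in the microglia-like class. Cxcl2 in microglia-like cells then exceeded that in tumour-like cells by 0.69 in place of 3.50 on the log2(CPM + 1) scale, and lay below macrophages by 7.19 in place of 4.48. The part of macrophage RNA or of doublets in this signal was not tested. Microglia-like cells lay in different clusters: those of BP replicate 1 and UT lay mostly in a cluster led by C1qa, C1qb, C1qc and Cd74, and those of the other 5 libraries mostly in one led by C1qa, C1qb and Cx3cr1, where BP replicate 2 still had 0 UMIs and IgG replicate 1 had 193 CPM. The cluster with Cd74 also raised 0.636 of the monocyte/macrophage markers, and the one with Cx3cr1 no second list. Setting BP replicate 1 or UT against IgG thus compares unlike clusters.

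**Figure D2:**
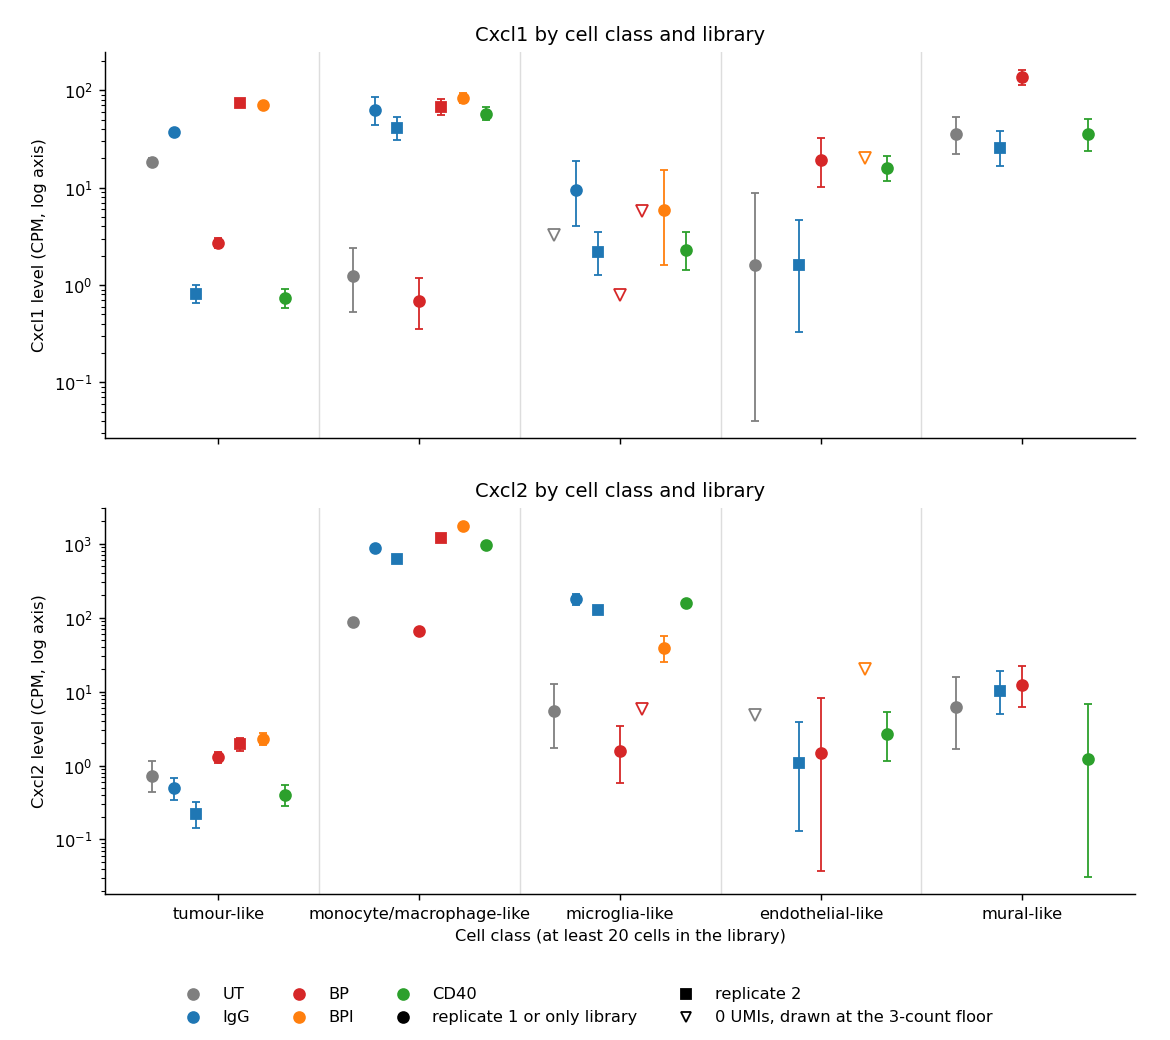
Level of Cxcl1 (upper panel) and Cxcl2 (lower panel) in CPM on log axes, by cell class (x axis) and library (colour by group, circle for replicate 1 or the only library, square for replicate 2), with exact 95% counting intervals. Triangles mark 0 UMIs and are drawn at the 3-count floor, for example BP replicate 2 in microglia-like Cxcl2. The 5 highest libraries in monocyte/macrophage-like Cxcl2 lie between 629 and 1712 CPM, and UT and BP replicate 1 at 86.7 and 66.2 CPM.

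Rare granulocytes carried Cxcl2 at the highest CPM, though the single highest cell, with 205 UMIs, was monocyte/macrophage-like. Neutrophil-like cells, 68 in all, stood at 3015 CPM pooled over libraries and at 2240 CPM in the 27 cells of BP replicate 1. In BP replicate 1, 42 mast or basophil-like cells, named from genes such as Mcpt8, stood at 3165 CPM and held 22.6% of that library's 1914 Cxcl2 UMIs. Tumour-like cells were at the other end. Their Cxcl2 was at 0.730 CPM in UT, 0.494 in IgG replicate 1, 0.218 in IgG replicate 2, 1.30 in BP replicate 1, 1.94 in BP replicate 2, 2.30 in BPI and 0.396 in CD40. An upper estimate of free RNA from near-empty droplets came to 15.0% to 171.5% of those UMIs, and in IgG and CD40 it exceeded the UMIs counted, so Cxcl2 expression by tumour cells was not detectable there. Endothelial-like cells ranged from 0 to 2.67 CPM.

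Across the 7 libraries, class sums were compared pairwise within a library with a two-sided exact sign-flip permutation test, 15 tests in all. Cxcl2 was higher in monocyte/macrophage-like than in tumour-like cells in 7 of 7 libraries, by 7.98 ± 1.88 (SD) on the log2(CPM + 1) scale, and higher than in microglia-like cells in 7 of 7, by 4.48 ± 2.81. Both had an exact p of 0.0156, the smallest that 7 libraries allow, and an adjusted p of 0.0469. That adjusted value depends on other tests tied at the same exact p, for Cxcl1, Cxcl5 and Cxcr2 against microglia-like cells. Those are not read as differences, because microglia-like sums held 0 UMIs, so the adjusted p is not read as passing the threshold. Microglia-like cells exceeded tumour-like cells in 6 of 7 libraries, by 3.50 ± 3.47 (exact permutation test, adjusted p = 0.104). In BP replicate 2 the microglia-like cells had 0 Cxcl2 UMIs, and 3 counts there (5.79 CPM) would exceed the tumour-like 1.94 CPM. The direction of BP replicate 2 is thus not set, though it entered that mean and p. For Cxcl1, monocyte/macrophage-like cells exceeded microglia-like cells in the 5 libraries where depth could show it. In UT and BP replicate 1 the microglia-like cells had 0 UMIs, and 3 counts there (3.23 and 0.797 CPM) would exceed the macrophage level, so no p is given. Monocyte/macrophage-like cells did not differ from tumour-like cells in a fixed direction, being higher in 4 of 7 by 0.88 ± 2.96 (exact permutation test, adjusted p = 0.469). Leaving out any 1 IgG or BP library gave 7.78 to 8.50 and 3.52 to 4.85 for these Cxcl2 differences, with an adjusted p of 0.0670 to 0.0938, where the unadjusted exact p was the smallest that 6 libraries allow.

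Cxcl1 and Cxcl2 met in the same macrophages. Of 1023 monocyte/macrophage-like cells with a Cxcl2 UMI, 15.2% also had a Cxcl1 UMI, against 0.777% of those without. Within libraries, this was 20.8% to 26.6% against 0% to 3.03% in the 5 libraries high in both genes, 6.09% against 0.217% in UT and 1.13% against 0.519% in BP replicate 1. Cells with Cxcl2 were the deeper ones in each library, for example at a median of 11120 against 7715 UMIs in BP replicate 1. In the other direction, 88.6% of the 175 cells of this class with Cxcl1 had Cxcl2. Across 68 sums of a class in a library with at least 20 cells (17 classes, the unnamed cells as one of them), the genes most like Cxcl2 in log2 CPM were Clec4d (Pearson r = 0.892), Cd300ld (0.885), Clec4e (0.841), Igsf6 (0.836) and Olr1 (0.810). Clec4d and Clec4e encode C-type lectin receptors of myeloid cells. For Cxcl1 they were Aprt (0.654), Pf4 (0.6496), Spata7 (0.608), Cox4i2 (0.599) and Apold1 (0.596). These sums share libraries and depth, and the correlations are descriptions.

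Cxcl3, a close relative of Cxcl2, was rare, with 99 UMIs in cells. Monocyte/macrophage-like cells held 83.8% of them, and 72 UMIs lay in 17 cells of BP replicate 1, up to 15 in a cell. The class had 6 UMIs in CD40, 3 in BP replicate 2, 1 each in BPI and IgG replicate 1, and 0 in IgG replicate 2 and UT. BP replicate 1, lowest in Cxcl2 for these cells, stood at 4.07 CPM in Cxcl3 (3.19 to 5.13), and the counting intervals of IgG replicate 1, BP replicate 2 and CD40 reach into that range. Neutrophil-like cells had 4 Cxcl3 UMIs and mast or basophil-like cells 3, and microglia-like cells had 0. Tumour-like cells had 8, and the free RNA estimate reached 9.21 UMIs in CD40 alone, where 1 was counted. The genes most like Cxcl3 were Rab44 (r = 0.878), S100a8 (0.797), Clec4d (0.794), Clec4e (0.766) and Hdc (0.762).

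Cxcl5, known from epithelial and stromal cells, was split between tumour-like and mural-like cells. Of 204 UMIs, tumour-like cells held 54.9%. Their level was 0.384 CPM in UT, 0.564 in IgG replicate 1, 0.0168 in IgG replicate 2, 0.0482 in BP replicate 1, 0.521 in BP replicate 2, 0.490 in BPI and 0.0297 in CD40. As for Cxcl1, the first library set and UT lay above the other 3 libraries. Another 74 UMIs lay in 4 of the 30 mural-like cells of BP replicate 1, with 53, 14, 5 and 2 UMIs, all in a cluster led by Igfbp7, Ccl11 and Rgs5. The 4 cells also had 4 to 32 Cxcl1 UMIs each, and 1 cell thus held 53 of the 204 Cxcl5 UMIs. Against the other 26 mural-like cells of that library, their summed mural markers were at 2912 against 4154 CPM, their endothelial markers at 2925 against 1775 CPM with 7 of 8 higher, and their median depth at 66130 against 21060 UMIs. The part of doublets in this was not tested. Microglia-like cells had 0 Cxcl5 UMIs in all 7 libraries, but 3 counts would be 0.314 to 5.79 CPM there, above the tumour-like level of the same library in each of the 7, so a difference was not detectable at this depth. The genes most like Cxcl5 were Nts (r = 0.872), Ccl11 (0.698), Col6a2 (0.628), Col6a1 (0.578) and Postn (0.537), of which the last 3 encode matrix proteins.

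Cxcr2 was densest in granulocytes. Of 68 neutrophil-like cells, 51 (75.0%, 63.0% to 84.7%) had a Cxcr2 UMI at a median depth of only 1708 UMIs per cell, and of 43 mast or basophil-like cells 22 did (51.2%, 35.5% to 66.7%). Neutrophil-like cells carried 873 CPM pooled over libraries. By library, 1 of 1 such cells bore the receptor in UT, 2 of 4 in IgG replicate 1, 1 of 2 in IgG replicate 2, 27 of 27 in BP replicate 1, 5 of 13 in BP replicate 2, 11 of 14 in BPI and 4 of 7 in CD40. Of the 51 receptor-bearing neutrophil-like cells, 26 also held Cxcl2. The genes most like Cxcr2 across sums were Rab44 (r = 0.787), Stfa2l1 (0.700), Cstdc4 (0.697), Cstdc5 (0.694) and S100a8 (0.694).

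**Figure D3:**
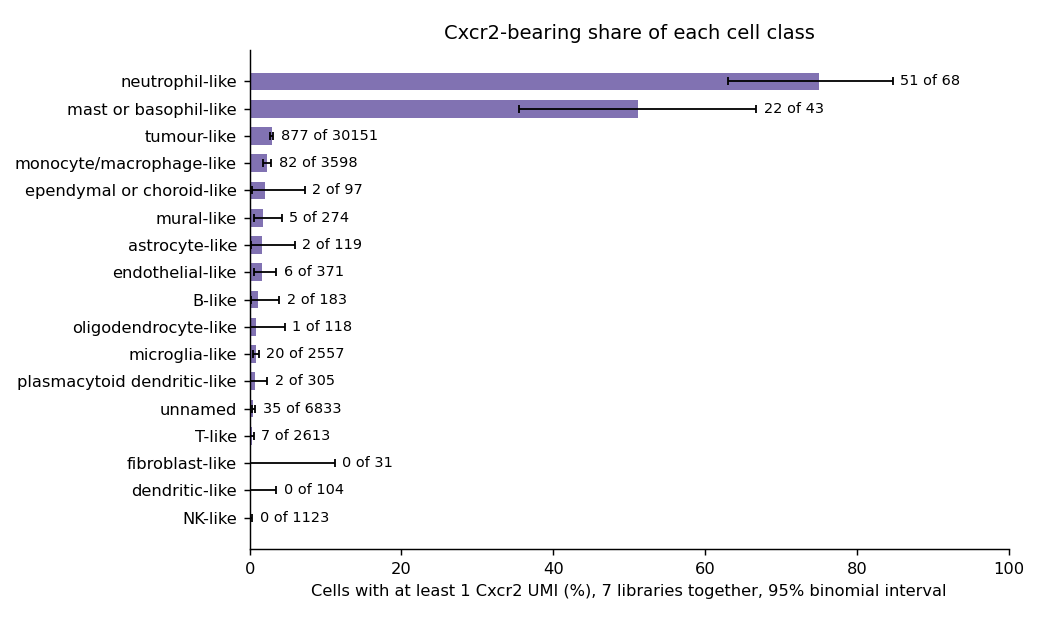
Percentage of cells with at least 1 Cxcr2 UMI (x axis) in each cell class (y axis), all 7 libraries together, with exact 95% binomial intervals and the number of cells beside each bar. Neutrophil-like (51 of 68) and mast or basophil-like cells (22 of 43) stand far above all other classes, which are below 3%.

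Neutrophil-like cells were few in every library. They were 1 of 5373 cells in UT, 4 of 5944 in IgG replicate 1, 2 of 7493 in IgG replicate 2, 27 of 9650 in BP replicate 1, 13 of 5720 in BP replicate 2, 14 of 6639 in BPI and 7 of 7769 in CD40. Both BP libraries (0.280% and 0.227% of cells) and BPI (0.211%) lay above both IgG libraries (0.0673% and 0.0267%). The difference of 0.207 percentage points between BP and IgG reached the smallest p that 2 against 2 libraries allow (two-sided exact permutation test, p = 0.333). Within the first set the share was 0.227% in BP replicate 2 and 0.211% in BPI against 0.0673% in IgG replicate 1. With a minimum of 500 in place of 1000 UMIs per cell, both BP libraries (27 and 12 cells) and BPI (20 cells) still lay above both IgG libraries (3 and 2 cells), and BP exceeded IgG by 0.188 percentage points. At 1000 UMIs other classes had this order too. Monocyte/macrophage-like cells were 18.7% and 4.545% in BP replicates 1 and 2 and 9.595% in BPI, against 1.31% and 0.9075% in IgG. T-like cells were 13.4%, 3.97% and 8.98% against 0.656% and 0.761%. Microglia-like cells did not follow it, at 2.69%, 2.885% and 3.19% against 2.61% and 9.86%. The order was thus not particular to neutrophil-like cells.

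By number, most Cxcr2-bearing cells were tumour-like: 877 of 1114, holding 69.3% of the 1438 UMIs. Their share within the class was low, 2.91% (2.72% to 3.11%), at a median depth of 15870 UMIs. The level was 0.768 CPM in UT, 2.72 in IgG replicate 1, 1.70 in IgG replicate 2, 0.666 in BP replicate 1, 2.78 in BP replicate 2, 2.21 in BPI and 2.51 in CD40. UT and BP replicate 1 were the 2 lowest, and the other 5 lay within 1.70 to 2.78 CPM. T-like cells, which should lack Cxcr2, bore it in 7 of 2613 (0.268%, 0.108% to 0.551%) at a median of 4312 UMIs, and NK-like cells in 0 of 1123, with an upper exact bound of 0.328%, at 2916. Pooled levels, which do not depend on depth per cell in this way, were 1.90 CPM in tumour-like and 0.440 CPM in T-like cells. But 5 of the 7 T-like UMIs came from BP replicate 1, with 0.485 CPM (0.158 to 1.13) in T-like and 0.666 CPM (0.518 to 0.843) in tumour-like cells. A single UMI in each IgG library put T-like cells at 8.19 and 4.62 CPM, above the tumour-like levels. The counting intervals of the 2 classes overlapped in each of the 7 libraries, so the pooled difference was not seen within any library. Thinned to 1000 UMIs per cell, the share was 0% to 0.270% in tumour-like cells and 0% in T-like cells of every library. The free RNA estimate came to 1.56% to 4.91% of the tumour-like Cxcr2 UMIs.

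Receptor-bearing tumour-like cells carried tumour markers and few neutrophil markers. Their summed tumour markers were at 989 against 930 CPM and their summed neutrophil markers at 2.65 against 3.36 CPM. The gene highest by fold in them, chosen after the values were seen, was Hist2h2ac at 124 against 68.6 CPM. With at least 2 Cxcr2 UMIs required, 166 cells remained, of which 79 were tumour-like, 40 neutrophil-like, 33 monocyte/macrophage-like and 8 mast or basophil-like. The highest single cell was tumour-like, in IgG replicate 2, with 11 UMIs. Microglia-like Cxcr2 was at 0.907 CPM in IgG replicate 2 and 1.26 CPM in CD40, below the tumour-like levels of 1.70 and 2.51 CPM there (the counting intervals overlap in IgG replicate 2), and rested on 0 or 1 UMI in each of the other 5 libraries, too few to place it.

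Most receptor-bearing macrophages came from 1 library. Monocyte/macrophage-like Cxcr2 stood at 8.14 CPM in BP replicate 1 (66 of 1806 cells) and at 0 to 1.71 CPM in the other 6 libraries, where 16 cells in all bore it. As a share of the class this was 3.65% (2.84% to 4.63%) in BP replicate 1 and 2.91% (0.951% to 6.65%, 5 of 172 cells) in CD40, intervals that overlap, and 0% to 1.28% in the other 5. BP replicate 2 had 2 UMIs in 260 cells. Summed neutrophil markers in the 66 cells of BP replicate 1 were at 243 CPM, against 182 CPM in the cells of that class without the receptor, with 4 of 12 higher and 5 at 0. Among them S100a9 was at 0 and S100a8 at 12.4 CPM, against 49760 and 33240 CPM in neutrophil-like cells, Csf3r was at 98.0 against 108 CPM in cells without the receptor, and Il1r2, which is one of the markers, at 83.1 against 8.53 CPM. All 7 mast or basophil markers were at 0 as well. Their summed monocyte/macrophage markers were at 14270 CPM, against 14340 CPM in the 1740 cells without the receptor. Highest by fold among their genes, chosen after the values were seen, were Plet1 at 549.7 against 20.3 CPM and the chemokine Ccl17 at 846 against 42.1 CPM. The matrix proteases Mmp13 and Mmp12 stood at 799 against 113 and at 1725 against 314 CPM.

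The effect of treatment on the members was tested on UMI sums per library and class with edgeR's quasi-likelihood test, adjusted over all genes of the class. Of the members that could be tested, 0 were called in any of the 12 comparisons of BP, BPI, CD40 or UT with IgG in tumour-like, monocyte/macrophage-like and microglia-like cells. The background was equally low: 0% of genes passed in 11 comparisons, and 0.232% in UT against IgG in monocyte/macrophage-like cells. For BP against IgG, edgeR gave an unadjusted p under 0.05 for 419 of 20164 genes in tumour-like, 954 of 11787 in monocyte/macrophage-like and 590 of 12407 in microglia-like cells, and DESeq2 called 64, 105 and 44 genes. For BPI those unadjusted counts were 195, 1291 and 393 and the DESeq2 calls 6, 192 and 18, for CD40 they were 19, 112 and 50 and 0, 3 and 0, and for UT 2373, 1494 and 1242 and 727, 217 and 101. All 4 treated or untreated groups were set against the same 2 IgG libraries. For BP, the count filter let through 4 members in tumour-like cells, 3 (Cxcl1, Cxcl2 and Cxcr2) in the macrophage class and 2 (Cxcl1 and Cxcl2) in the microglia class.

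The member nearest to a call was Cxcl2 in microglia-like cells, which had too few counts to be tested at Leiden resolution 2. It was lower in BP than in IgG by 6.76 ± 0.58 (SE) on the log2 scale, with an unadjusted p of 1.13e-05 and an adjusted p of 0.141 (edgeR, 2 libraries each, both BP libraries below both IgG libraries). DESeq2 called it, at -6.80 with an adjusted p of 2.60e-11, as did edgeR without the filter on low counts (adjusted p = 5.68e-25), and edgeR's adjusted p ranged over alternatives up to 0.526. With the replicate number as a block, which does not pair these libraries, the value was -6.91 (edgeR, adjusted p = 0.00525). Without the count filter edgeR called 307 of 22079 genes for BP in this class, and with the block 13 of 10859. Fits without a BP library leave 1 BP library, and their spread between replicates comes from the 2 IgG libraries alone. Without BP replicate 1 the fitted value for Cxcl2 was -12.16, which is no bound, as the remaining BP library had 0 UMIs. Without BP replicate 2 it was -6.46. UT was below IgG as well, with a log2 change of -4.53 ± 0.67 (edgeR, adjusted p = 0.325), which DESeq2 called at 8.91e-04. It was also called by edgeR without the filter on low counts (adjusted p = 1.25e-08), where 485 of 22154 genes were called. Leaving out 1 IgG or BP library gave UT values of -4.72 to -4.34. Thinned to 1000 UMIs, the share of microglia-like cells with Cxcl2 was 3.88% ± 0.90 in IgG and 0.192% ± 0.272 in BP (SD, n = 2 each, two-sided exact permutation test, p = 0.333, the smallest possible).

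In monocyte/macrophage-like cells, Cxcl2 differed little between BP and IgG on average, by -0.02 ± 1.07 on the log2 scale (edgeR, adjusted p = 0.998), with 1 BP library below and 1 above both IgG libraries. Without BP replicate 1 the change was 0.91, and without BP replicate 2 it was -3.54. In both fits 1 BP library was left, and the spread between replicates came from the 2 IgG libraries alone. Such fits do not measure the spread of BP, so only their fitted changes are given. Cxcl1 in these cells went the same way, from -0.44 ± 1.44 in the full fit to 0.69 without BP replicate 1 and to -6.18 without BP replicate 2. Cxcr2 was higher in BP by 3.21 ± 1.67 (adjusted p = 0.703), and the value was 1.61 without IgG replicate 2. Without IgG replicate 1 the remaining IgG library had 0 UMIs, and the fitted value of 7.79 is no bound. Without BP replicate 1 the gene was too low to be tested. Against IgG, UT was lower in Cxcl1 by a log2 change of -4.99 ± 2.24 (edgeR, adjusted p = 0.422) and in Cxcl2 by -2.78 ± 1.46 (adjusted p = 0.502). Leaving out 1 IgG or BP library gave UT values of -5.31 to -4.64 for Cxcl1 and -3.02 to -2.47 for Cxcl2. The Cxcl2 difference was called without the filter on low counts (edgeR, adjusted p = 0.0122), where 643 of 21727 genes were called.

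In tumour-like cells, none of the 4 members tested was called, and only Cxcl2 had both BP libraries above both IgG libraries. For Cxcl2 the free RNA estimate exceeded the UMIs counted in IgG replicates 1 and 2 (132% and 171.5% of them). Its change is thus set against a level at which expression by tumour cells was not detectable. Cxcl1 changed by 1.03 ± 2.05, Cxcl2 by 2.18 ± 0.75, Cxcl5 by -0.02 ± 1.83 and Cxcr2 by -0.32 ± 0.88 on the log2 scale (edgeR, adjusted p = 1.0 for each). For Cxcl1 the value became 5.73 without IgG replicate 1, -3.01 without BP replicate 2, and kept its sign in the other 2 fits that left out a library. The BPI library differed from IgG by 2.00 ± 2.38 in Cxcl1 in tumour-like cells, 1.70 ± 1.26 in Cxcl2 in monocyte/macrophage-like cells and -1.84 ± 0.54 in Cxcl2 in microglia-like cells, and CD40 by 0.33 ± 1.29 and 0.06 ± 0.46 in the last 2 (edgeR, none called). Without BP replicate 2, edgeR called Cxcl2 in BPI in monocyte/macrophage-like cells (1.71, adjusted p = 0.0143) and in microglia-like cells (-1.80, adjusted p = 0.0177). BPI, CD40 and UT are single libraries, assumed here to vary like the others.

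**Figure D4:**
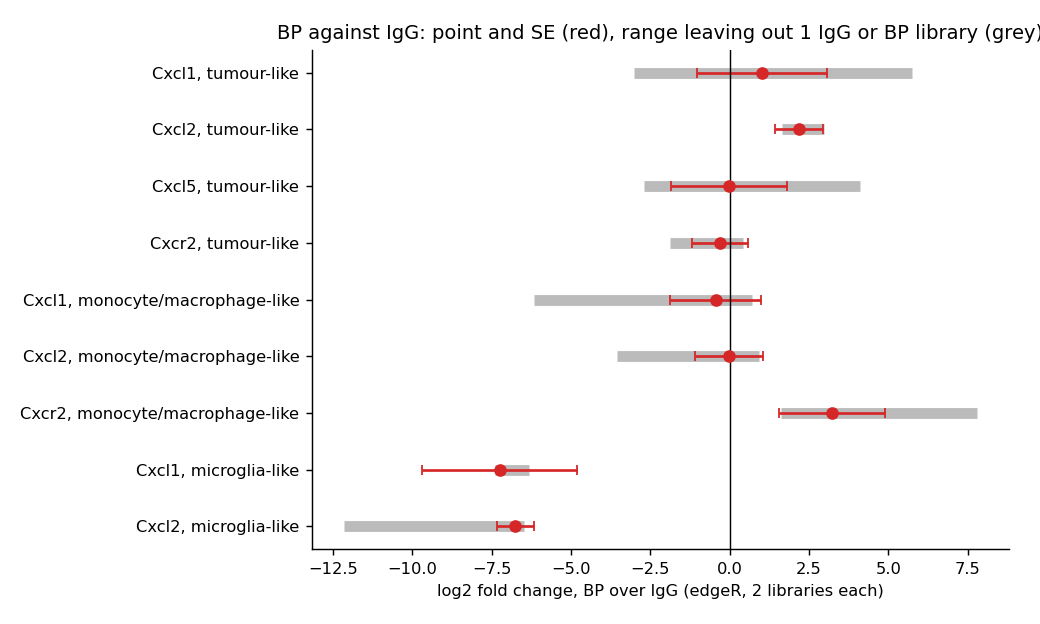
Log2 fold change of each tested member, BP over IgG (x axis), by class (y axis), as edgeR point and SE in red, with the range over fits that leave out 1 IgG or BP library in grey. Microglia-like Cxcl2 stays below 0 and tumour-like Cxcl2 above 0 in these fits, and 5 grey bars cross 0. In both IgG libraries the free RNA estimate exceeded the tumour-like Cxcl2 UMIs counted. Both BP libraries had 0 UMIs of microglia-like Cxcl1 and IgG replicate 2 had 0 UMIs of monocyte/macrophage-like Cxcr2, so the fitted values of those 2 are no bounds.

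Genes for cytokines known to induce the ligands, and for their receptors, were read beside the ligands as class sums, not cell by cell. Of 15 genes for inducing cytokines and their receptors, the highest in monocyte/macrophage-like cells were Il1b and its antagonist Il1rn, the TNF receptor Tnfrsf1b and Tnf. Il1b stood at 208 CPM in UT, 406 in IgG replicate 1, 108 in IgG replicate 2, 376.8 in BP replicate 1, 1241 in BP replicate 2, 1844 in BPI and 213 in CD40. Its 2 highest libraries were also the 2 highest in Cxcl2 for these cells, but BP replicate 1 was near IgG replicate 1 in Il1b and far below it in Cxcl2. For BP against IgG, 0 of 13 tested list genes passed, 12 had a fitted change above 0, and their median was 1.22 on the log2 scale against 0.04 over all genes. In tumour-like cells 0 of 14 passed, 14 were above 0 with a median of 1.14 against 0.0020 over all genes, and the list was led by the receptor subunits Il1rap, Il6st, Tnfrsf1a and Osmr. The tumour-like sums of this list were 202 CPM in IgG replicate 1 and 237 CPM in BP replicate 2, of the same set. They were 171 CPM in IgG replicate 2 and 341.5 CPM in BP replicate 1, which has no IgG library of its own set. Osmr, which with Il6st forms the oncostatin M receptor, was at 34.2 CPM in IgG replicate 1, 53.5 in BP replicate 2 and 49.96 in BPI, against 25.2 in BP replicate 1, 9.98 in UT, 3.32 in IgG replicate 2 and 3.95 in CD40. In microglia-like cells 0 of 14 passed, with a median of 0.33 against -0.04.

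NF-kappa B response genes, a list of 20, followed another order in macrophages than in microglia. Their summed level in monocyte/macrophage-like cells was 2950 CPM in UT, 3261 in IgG replicate 1, 1890 in IgG replicate 2, 3239 in BP replicate 1, 5966 in BP replicate 2, 7979 in BPI and 2719 in CD40. The 2 highest were again BP replicate 2 and BPI, and BP replicate 1 was not low. For BP against IgG in these cells 0 of 20 passed, 20 were above 0, and the median was 1.03 against 0.04 for all genes. Its leading genes were the inhibitor Nfkbia, the chemokine Ccl4, the RNA-binding protein Zfp36 and Ier3, and Nfkbia changed by 0.98 ± 0.64 on the log2 scale (edgeR, adjusted p = 0.790). In microglia-like cells the sum was 3644 CPM in UT, 6065 and 5685 in IgG, 2630 and 7860 in BP, 13770 in BPI and 6258 in CD40. BP replicate 2 and BPI, low in microglial Cxcl2, thus had the 2 highest sums of this list, and 0 of 20 passed with a median of 0.13 against -0.04. In tumour-like cells 0 of 20 passed and the median was 0.42 against 0.0020.

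A list of 15 dissociation-response genes, immediate early and heat shock genes such as Fos, Jun and Hsp90aa1, was read beside the ligands. In microglia-like cells their summed level was 3203 CPM in UT, 11540 in IgG replicate 1, 9748 in IgG replicate 2, 2931 in BP replicate 1, 26810 in BP replicate 2, 19620 in BPI and 11030 in CD40. UT and BP replicate 1 were lowest in this list and low in Cxcl2, but BP replicate 2 was highest in the list and had 0 Cxcl2 UMIs. In monocyte/macrophage-like cells the sums were 2387 CPM in UT, 4340 and 2853 in IgG, 3491 and 6217 in BP, 7018 in BPI and 4067 in CD40, and the libraries highest in the list, BPI and BP replicate 2, were highest in Cxcl2. In tumour-like cells the list summed to 4520, 5123 and 5923 CPM in the first library set, where Cxcl1 was highest, and to 2505 to 3204 CPM elsewhere. Such sums are weighted to the highest genes of the list, and single genes need not follow this order. For BP against IgG, 0 of 15 passed and 12 of 15 were above 0 in each of the 3 classes, with medians of 0.49, 0.71 and 0.47. The part of the digestion response in the ligand levels was not tested.

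**Figure D5:**
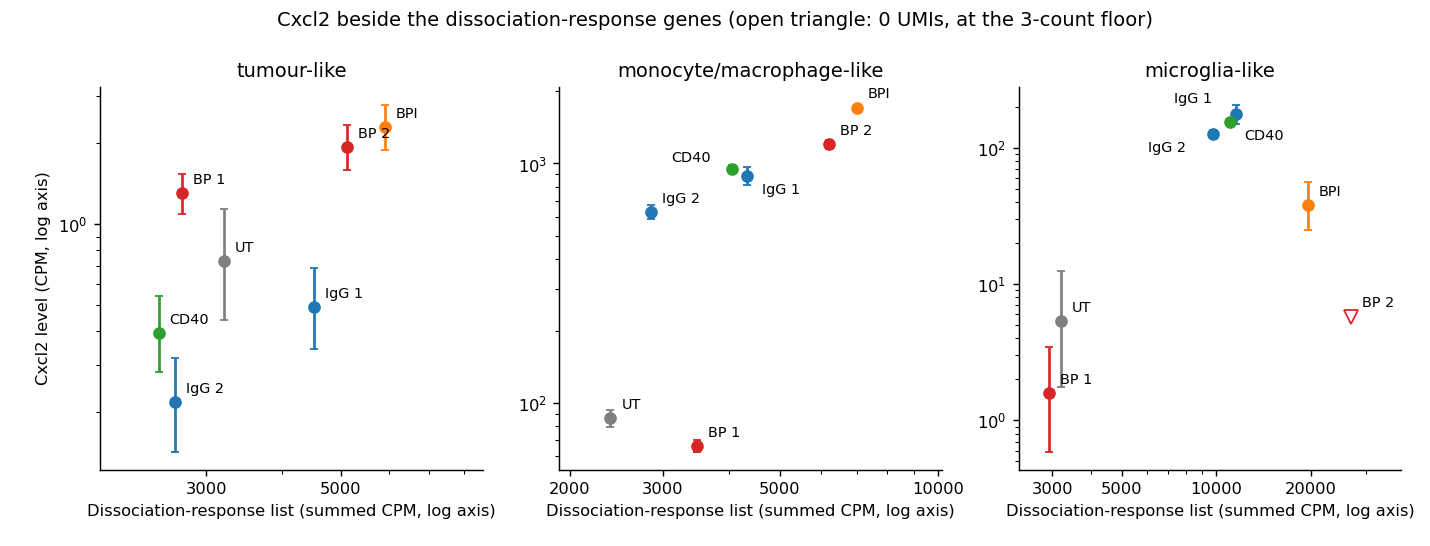
Cxcl2 level (y axis, CPM, log axis) against the summed level of 15 dissociation-response genes (x axis, CPM, log axis) in 3 cell classes, 1 point per library with its exact 95% counting interval. In monocyte/macrophage-like cells BPI and BP replicate 2 are highest on both axes, and in microglia-like cells BP replicate 2, with 0 UMIs drawn at the 3-count floor (triangle), is highest on the x axis only.

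Of 3 other genes for ligands of the receptor (Ppbp, Cxcl15 and Mif) and 2 for other receptors of these chemokines (Cxcr1 and Ackr1), only Mif, a cytokine reported to bind Cxcr2, passed the count filter in the fit of 6 libraries. In the fit of all 7 libraries, 2 of the 5 passed in tumour-like cells. Mif stood at 601 to 1676 CPM in tumour-like cells. It was highest in IgG replicate 1, BP replicate 2 and BPI, at 1676, 1579 and 1585 CPM, and changed by 0.10 ± 0.63 in BP against IgG (log2, edgeR, adjusted p = 1.0). Ackr1, the chemokine sink of venules, stayed at or below 0.384 CPM in tumour-like cells. In endothelial-like cells it stood at 566 CPM in UT, 30.6 in IgG replicate 2, 582 in BP replicate 1, 434 in BPI and 79.3 in CD40, the libraries with at least 20 such cells, and was not tested there. Genes of Cxcr2 signalling, 16 in the list, were present in all 3 classes, summing to 546.9 to 894.5 CPM in tumour-like, 2661 to 2878 CPM in monocyte/macrophage-like and 2105 to 3061 CPM in microglia-like cells. Gnai2 and Gnb1, which encode G protein subunits, and Dock2 were among the highest in macrophages. In BP against IgG 0 of 16 passed in each class, with medians of 0.14, 0.23 and 0.17.

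Genes for neutrophil growth and recruitment, 19 in the list, differed in what was missing. The growth factor Csf3 stayed at or below 0.538 CPM in tumour-like cells and at 0 in microglia-like cells, and Csf2 at or below 0.212 CPM in tumour-like cells. Integrin genes led in macrophages, with Itgb2 at 169 to 359 CPM and Itgam at 122 to 245 CPM. Csf2rb, a shared receptor chain for GM-CSF, stood in monocyte/macrophage-like cells at 125 CPM in UT, 64.1 and 46.5 in IgG, 319.7 and 132 in BP, 245 in BPI and 91.3 in CD40. Both BP libraries were above both IgG libraries, by 2.10 ± 0.48 on the log2 scale, which did not pass (edgeR, unadjusted p = 0.00231, adjusted p = 0.270). For BP against IgG, 0 of 17, 0 of 14 and 0 of 10 tested list genes passed in tumour-like, monocyte/macrophage-like and microglia-like cells, with medians of 1.28, 0.49 and 0.07. The tumour-like sums of this list were 3.96 and 8.93 CPM in IgG replicates 1 and 2 and 36.8 and 3.95 CPM in BP replicates 1 and 2, so within the first set IgG replicate 1 and BP replicate 2 had nearly equal sums, and only BP replicate 1 stood above both IgG libraries.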

How the data were processed

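Droplet single-cell RNA libraries of 7 tumour pools were used. The authors deposited unnormalized UMI counts for all barcodes against mm10, made with Cell Ranger 7.0.1 per the submitters' processing notes, while the file headers name another version of that tool. Cells were barcodes that reached 1000 UMIs and 500 genes with no more than 15% of UMIs mitochondrial. Those with the highest doublet scores were removed. The share removed was set in advance at 0.8% per 1000 cells (4.50% to 8.44% per library) and is not a measured doublet rate. Scanpy 1.11.5 (Python 3.11.15) clustered the cells without the members, from 2000 variable genes, 30 principal components and Leiden resolution 1. A cluster was named when at least 3 markers of 1 of 20 lists were raised. It stayed unnamed if its 10 top genes by fold held more markers of another list than of its own. It also did if its depth was below 1/3 of the library median and those genes held no marker of its list. Counts were summed per library and class of at least 20 cells and tested with edgeR 4.0.16 (6 libraries in 1 fit, and all 7 for UT), or compared between classes by exact sign flips with a pseudocount of 1. Adjusted p-values are by Benjamini-Hochberg and the threshold was 0.05. Scripts were tested on simulated data. Free RNA was estimated from barcodes of 10 to 100 UMIs. Alternatives were DESeq2 1.42.0, no count filter, 500 UMIs per cell, resolution 2, doublets kept, a replicate block and leaving out each IgG or BP library. The members and the 6 pathway lists were chosen with earlier results of these data known, and from each list at most 4 genes, those with the highest CPM in the class described, were named, with a few others named for a level near 0 or beside a member.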

Additional observations from a re-analysis of the deposited data

Results flagged for a closer look

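Cxcl2 went opposite ways in 2 cell classes. On the log2(CPM + 1) scale, the mean of BP minus that of IgG was 0.948 in tumour-like sums and -6.56 in microglia-like sums, a gap of 7.50. Both BP libraries lay above both IgG libraries in the first class and below them in the second, and the difference between the classes was not tested. The tumour-like levels behind it were 0.218 to 1.94 CPM, and the free RNA estimate came to 15.0% to 171.5% of their UMIs.

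In the CD40 library, 42 Cxcl3 UMIs lay in barcodes outside the kept cells, against 8 inside them and 0 outside in either IgG library. Of the CD40 UMIs, 31 lay in barcodes with under 10 UMIs.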

How the results depend on the processing

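Of 333 alternatives over 37 results, 272 kept the direction and the side of the threshold, 16 changed direction, 21 became calls, 21 ceased to be calls and 3 moved. The calls that ceased were all of the 5 between-class differences below, and all but 1 of them came from leaving out a library, where fewer libraries raise the smallest p. The cause of the other changes was not tested. Microglia-like Cxcl2 in BP was called by DESeq2 (-6.80), without the count filter (-6.70) and with the replicate block (-6.91), and could not be tested at resolution 2. The replicate numbers do not pair the libraries (correlations -0.70, -0.24 and 0.04 in tumour-like, monocyte/macrophage-like and microglia-like cells). The block turned tumour-like Cxcl5 in BP to 0.47 and called 0, 100 and 13 genes in these classes. A crossed block, chosen after seeing the data, called 9, 174 and 0 genes. At resolution 2, Cxcl1 in BP was 0.23 and Cxcl2 in CD40 -1.20 in monocyte/macrophage-like cells, Cxcl1 in them minus tumour-like cells was -0.14, and minus microglia-like cells 2.93 (exact permutation test, adjusted p = 0.0781). At 2 or more UMIs, Cxcr2-bearing cells were 166, 58.8% of neutrophil-like cells, and 47.6% of bearing cells were tumour-like.

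Leaving out 1 IgG or BP library gave these ranges (log2). In BP, tumour-like cells had Cxcl1 -3.01 to 5.73, Cxcl5 -2.71 to 4.09 and Cxcr2 -1.87 to 0.42, monocyte/macrophage-like cells Cxcl1 -6.18 to 0.69 and Cxcl2 -3.54 to 0.91, and microglia-like cells Cxcl2 -12.16 to -6.46. Tumour-like Cxcl1 in UT was -1.11 to 4.58. Shares of cells thinned to 1000 UMIs (BP minus IgG, percentage points) were -1.11 to 4.55 for tumour-like Cxcl1 and -21.5 to 11.6 for monocyte/macrophage-like Cxcl2. Between classes, monocyte/macrophage-like minus microglia-like was 2.66 to 3.56 for Cxcl1 and 3.52 to 4.85 for Cxcl2, monocyte/macrophage-like minus tumour-like Cxcl2 7.78 to 8.50, and microglia-like minus tumour-like -0.40 to -0.30 for Cxcl5 and -0.99 to -0.74 for Cxcr2. The adjusted p of both Cxcl2 differences was then 0.0670 to 0.0938 (exact permutation test, 6 libraries, unadjusted p at its smallest). The values for Cxcl1, Cxcl5 and Cxcr2 are not read as differences, since microglia-like sums had 0 UMIs of Cxcl5 in all 7 libraries and 0 UMIs of Cxcl1 and of Cxcr2 in 3 libraries each.

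Calls over all genes ranged over the alternatives, in tumour-like, monocyte/macrophage-like and microglia-like cells, from 0 to 64, 621 and 987 for BP, to 6, 698 and 222 for BPI, to 0, 43 and 35 for CD40 and to 727, 643 and 887 for UT. Depth limits Cxcl3 and Cxcl5 most, with 99 and 204 UMIs in all cells.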
